A study of Homo sapiens with 4 samples.

Results

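Homologous recombination and Fanconi repair genes are described here by what happened to their knockouts in a pooled screen with the compound HQ461. The set was a list of gene symbols, drawn up with earlier results of these data known, and holds 36 of the 19111 genes measured. All 36 were found in the library, and MRE11A is the library's older symbol for MRE11.

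The screen used A549, an established human lung adenocarcinoma cell line, transduced with Brunello, a genome-wide lentiviral library of Cas9 guides (sgRNAs) that each knock out 1 gene. Cells were grown for 3 weeks in 4 µM HQ461 or in the vehicle, 0.1% DMSO, and sgRNAs were then sequenced from the surviving cells. The labels name 4 libraries, 2 per condition, whereas the count table has 1 column per condition. No source used here says how the libraries were merged, so the comparison has no replicate check and no p-value is given.

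Homologous recombination repairs a broken chromosome by copying an intact sister. The broken ends are trimmed to single strands, which are coated with protein and then pair with the matching sequence in a strand exchange that BRCA1, PALB2 and BRCA2 help to set up. The Fanconi pathway detects crosslinks that join both DNA strands at a stalled replication fork, marks the site by ubiquitination of FANCD2 and FANCI, and hands the cut intermediates to recombination. Cyclin K is the partner of the kinase CDK12, which is known for keeping up transcription of long DNA damage response genes, many of them in this set. HQ461 is a molecular glue that leads to degradation of cyclin K. The comparison therefore asks whether cells that had lost one of these repair genes became more or less abundant under HQ461 than under DMSO.

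In total 16127620 reads were counted with HQ461 and 14428845 with DMSO. The members have 144 sgRNAs, of which 143 had a count in at least 1 column, since CHEK1 was measured by 3. They sum to 15729 counts with DMSO and 21403 with HQ461. Counts were scaled by the median ratio over sgRNAs, under which an sgRNA of unchanged relative abundance has 0.694 HQ461 counts per DMSO count. The log2 fold change of an sgRNA is HQ461 over DMSO with 1 added to each normalized count, and a gene's value is the median over its sgRNAs. A positive value means that the knockout made up more of the HQ461 population than of the DMSO population. The fold is thus relative to the median sgRNA and is not an absolute growth rate, and loss of the protein was not measured. A gene was called higher at a log2 of 1 or above and lower at -1 or below, which is a description of size and not a test.

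Repair knockouts lay more often on the higher side than on the lower side. Of the 36 members, 7 were called higher (19.4%), against a background of 9.01% of all genes. CHEK1 alone was called lower (2.78%), against a background of 7.69%. The 7 higher genes were RAD51D, RAD51C, XRCC3, FANCF, MUS81, POLQ and PARP1. The median log2 fold change over the members was 0.34, with a range of -1.34 to 2.04, and it was -0.02 over all genes. A value above 0 was found for 23 members (63.9%) and for 48.7% of all genes. These counts depend on the scaling: with total counts in place of median ratios the median of all genes was -0.70 and that of the members -0.34, with 6 members lower and 4 higher, against 32.1% and 2.72% of all genes.

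The sgRNAs of a gene often differed widely. The SD of log2 over 4 sgRNAs had a median of 1.14 for the members and 0.96 for all genes. All 4 sgRNAs lay above 0 for 5 of the 35 members with 4 measured sgRNAs (14.3%), which were RAD51B, RAD51C, RAD51D, FANCB and MUS81, against a background of 10.3%. RAD54L was the 1 member with all 4 below 0 (2.86%), against a background of 9.00%. Non-targeting control sgRNAs, 997 in number, had a 5th percentile of -1.12 and a 95th percentile of 1.66. Above that range lay 21 of 143 member sgRNAs (14.7%), against a background of 9.64%, and below it lay 16 (11.2%), against a background of 15.4%. The sgRNAs above it include some of RAD51C, RAD51D, MUS81, BRCA1 and BRIP1. These genes lie on chromosome 17 or a stretch of 11q, where other genes were raised too. The shares of sgRNAs and of members with all 4 on one side were not computed without these regions. Controls had a median DMSO count of 525 and member sgRNAs of 83, so the control range was set at a higher depth than most member values.

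**Figure D1:**
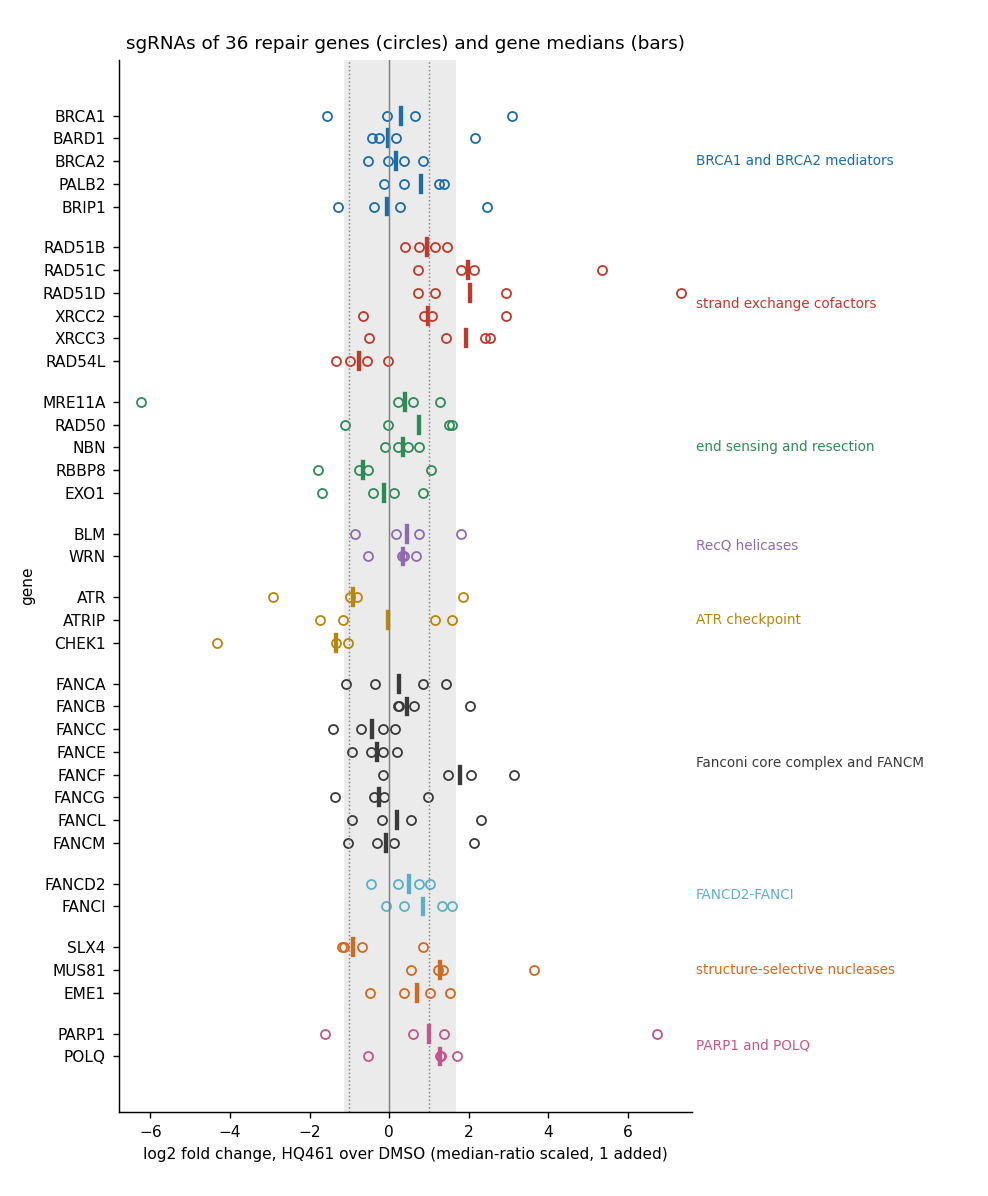
The log2 fold change (HQ461 over DMSO, x axis) of every measured sgRNA (circles) and the median of each gene (bars) for the 36 genes (y axis), coloured by role, with the 5th to 95th percentile of control sgRNAs in grey and the 2-fold lines dotted. The medians of RAD51B, RAD51C, RAD51D, XRCC2 and XRCC3 sit to the right of 0 and that of RAD54L to the left, and CHEK1 has the lowest median at -1.34.

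The strand exchange cofactors are RAD54L and the related proteins RAD51B, RAD51C, RAD51D, XRCC2 and XRCC3. They had the highest median of the roles, 1.45 over 6 genes. Of the 6 genes, 3 were called higher (50.0%), against a background of 9.01% of all genes. RAD51C and RAD51D lie on chromosome 17, where 49.1% of the other genes were called higher too. Against the median of the other genes within 10 Mb the 6 genes had a median of 0.90, below PARP1 and POLQ at 1.39, and neither RAD51C nor RAD51D was past 2-fold. RAD51D (chromosome 17, 35092221 to 35121522 on GRCh38) had the highest value of the set, 2.04. Its sgRNA counts went from 69 with DMSO to 80 with HQ461, from 11 to 18, from 58 to 313 and from 5 to 690. Their sum went from 143 to 1101, a log2 fold change of 3.47 (95% exact interval from the binomial split of the counts 3.22 to 3.73). All 4 sgRNAs thus moved the same way, with most of the HQ461 reads from a single sgRNA that was nearly absent with DMSO. The reads are PCR products counted without molecular identifiers, so this and all later intervals cover counting error only.

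RAD51C (chromosome 17, 58692573 to 58735611), which is found in both of the complexes that these related proteins form, had a median of 1.97. Its 4 sgRNAs went from 10 to 12, from 84 to 207, from 23 to 73 and from 1 to 61 counts, and their sum from 118 to 353 (log2 2.11, 1.80 to 2.42). Again none of the 4 was lower. XRCC3 (chromosome 14, 103697609 to 103715504), the partner of RAD51C in the smaller complex, had a median of 1.92 on very few reads. Its sgRNAs went from 19 to 9, from 10 to 20, from 2 to 11 and from 7 to 32 counts, which sum to 38 and 72 (log2 1.45, 0.86 to 2.06). Its median normalized DMSO count of 7.08 stood at the 0.895th percentile of all genes, and no XRCC3 sgRNA reached 30 normalized counts with DMSO.

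RAD51B and XRCC2, which sit with RAD51C and RAD51D in the larger complex, lay just short of the 2-fold line at 0.95 and 0.97. All 4 RAD51B sgRNAs were above 0, at 29 to 27, 281 to 328, 45 to 70 and 119 to 228 counts, and they had the tightest spread of the 6 genes with an SD of 0.46. XRCC2 had 3 of 4 above 0, at 39 to 50, 47 to 70 and 22 to 122 counts, while its most abundant sgRNA went from 214 to 94. RAD54L, a motor protein that moves along DNA and promotes strand exchange, stood apart from the other cofactors at -0.77. Its counts went from 159 to 43, from 183 to 64, from 134 to 63 and from 83 to 56, and their sum from 559 to 226 (log2 -0.78, -1.01 to -0.55).

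**Figure D2:**
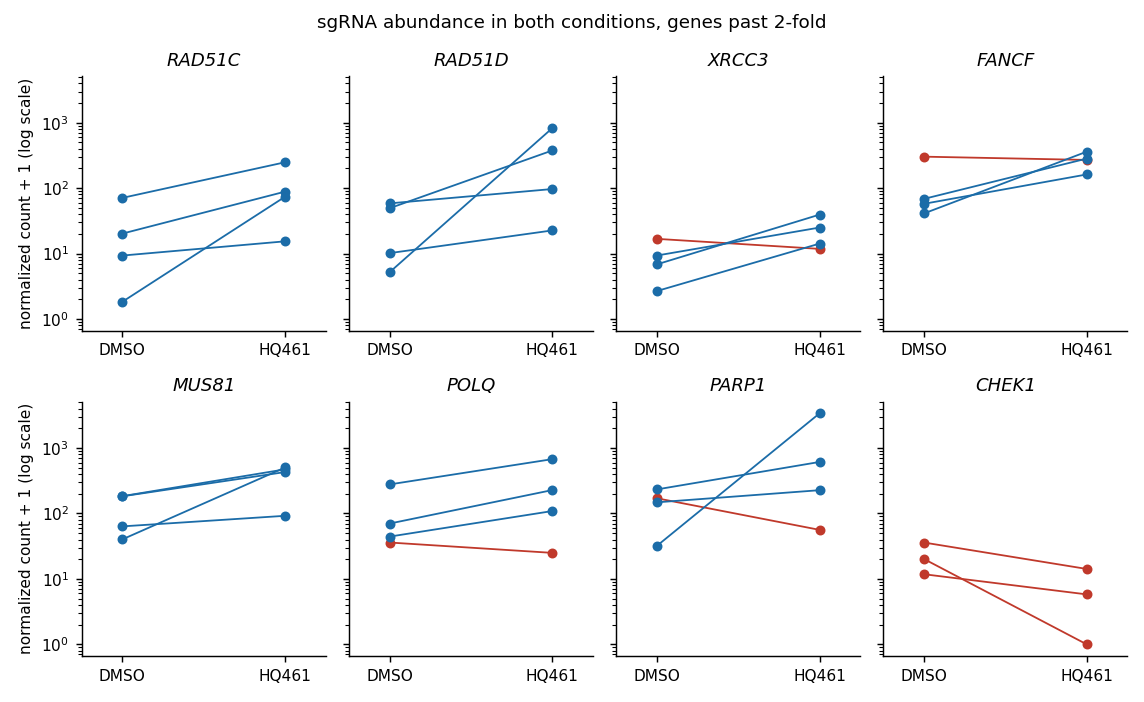
Normalized count + 1 (y axis, log scale) of each sgRNA with DMSO and with HQ461 for the 8 genes past 2-fold, where each line is 1 sgRNA, blue if higher with HQ461 and red if lower. All lines of RAD51C, RAD51D and MUS81 go up and all 3 of CHEK1 go down, and 1 PARP1 sgRNA climbs from 37 to 2823 raw counts.

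The BRCA1 and BRCA2 mediators, which prepare the resected ends for strand exchange, had a median of 0.17 over 5 genes, and none passed 2-fold. BRCA2, the central mediator of recombination, was close to the median sgRNA at 0.17. Its sgRNAs went from 147 to 70, from 108 to 73, from 32 to 29 and from 18 to 23 counts, and the sum gave a log2 of -0.12 (-0.39 to 0.15), so counting error spans 0. PALB2, which bridges BRCA1 to BRCA2, had the highest value of the group, 0.80, with sgRNAs at 68 to 43, 135 to 121, 14 to 24 and 260 to 467 counts. BRCA1, which with BARD1 forms a ubiquitin ligase that promotes resection, had a median of 0.30 while its summed counts went from 541 to 1191 (log2 1.67, 1.52 to 1.81). A single sgRNA, at 145 to 865 counts, made that difference, and the others were at 91 to 21, 66 to 44 and 239 to 261. BARD1 and the helicase BRIP1 had the same form, with medians of -0.04 and -0.05 and 1 high sgRNA each, at 151 to 470 and 199 to 757 counts. For these 3 genes the median and the sum of counts thus gave different pictures.

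The genes that sense and resect broken ends had a median of 0.34 over 5 genes, with none past 2-fold. In the complex that first binds the ends, the values were 0.40 for the nuclease MRE11A, 0.74 for RAD50 and 0.34 for NBN. One MRE11A sgRNA went from 89 counts to 0, at least 20.6-fold lower against a floor of 3 counts, whereas its other sgRNAs were at 57 to 46, 14 to 15 and 25 to 43. RAD50 was split evenly, with sgRNAs at 23 to 7, 22 to 15, 21 to 43 and 34 to 72 counts. NBN was the most even of the set, with an SD of 0.37 over sgRNAs and log2 values between -0.11 and 0.76. RBBP8, the factor that starts resection together with the MRE11 nuclease, was at -0.65, and its sgRNAs went from 18 to 3, from 45 to 18, from 40 to 19 and from 68 to 98 counts. EXO1, an exonuclease for long resection, was at -0.14. The RecQ helicases BLM, which unwinds recombination intermediates, and WRN, which acts at stalled forks and telomeres, were at 0.46 and 0.35.

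The ATR checkpoint, which holds the cell cycle when single-stranded DNA builds up, was the role with the lowest values, with a median of -0.90 over 3 genes. CHEK1 (chromosome 11, 125625163 to 125676255), the kinase that carries the signal from ATR, was at -1.34, or 2.53-fold lower. Its measured sgRNAs went from 23 to 0, from 42 to 11 and from 13 to 4 counts, which sum to 78 and 15 (log2 -1.85, -2.76 to -1.04). The sgRNA at 0 was at least 5.32-fold lower against a floor of 3 counts. All 3 sgRNAs were lower, on a DMSO level at the 3.35th percentile of all genes. ATR itself, at -0.90, fell short of the 2-fold line, with sgRNAs at 52 to 4, 41 to 14, 115 to 45 and 21 to 55 counts and a log2 of -0.43 for the sum (-0.76 to -0.10). ATRIP, which recruits ATR to single-stranded DNA, had a median of -0.02. Its sgRNAs were at 65 to 13 and 144 to 44 counts on one side and 0 to 1 and 15 to 33 on the other. Their sum went from 224 to 91 (log2 -0.77, -1.14 to -0.41). The ATRIP value was -1.45 with a minimum of 30 normalized DMSO counts and -0.40 with a pseudocount of 5. It was 1.14 without the sgRNA farthest from its median.

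The Fanconi core complex, the ubiquitin ligase that acts on FANCD2 and FANCI, was grouped with its DNA translocase FANCM. These 8 genes had a median of 0.05, and FANCF alone was called higher (12.5%, against 9.01% of all genes), with none lower. FANCF (chromosome 11, 22622533 to 22625823), an adaptor inside the complex, was at 1.77, with sgRNAs at 362 to 224, 68 to 134, 81 to 235 and 48 to 300 counts. The sum went from 559 to 893 (log2 1.20, 1.05 to 1.36), and 3 of the 4 sgRNAs were higher. The remaining subunits lay between -0.42 and 0.44, so the value of FANCF was not shared by the complex it belongs to. FANCL, the catalytic subunit, was at 0.19, with 1 sgRNA at 181 to 626 counts and another at 302 to 109. FANCB was at 0.44 with all 4 sgRNAs above 0, and FANCA was at 0.25. FANCC, FANCE, FANCG and FANCM were at -0.42, -0.30, -0.25 and -0.09, each with sgRNAs on both sides of 0. The substrates of the complex were both above 0, FANCD2 at 0.49 and FANCI at 0.85. FANCI sgRNAs were at 143 to 93, 192 to 173, 49 to 86 and 40 to 84 counts.

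The structure-selective nucleases divided. MUS81 (chromosome 11, 65857126 to 65867653), which cuts branched intermediates, was at 1.29, with sgRNAs at 75 to 76, 219 to 357, 220 to 393 and 47 to 420 counts. Their sum went from 561 to 1246 (log2 1.68, 1.53 to 1.82), and none was lower. EME1, the partner without which MUS81 does not cut, was at 0.70, with 3 of 4 sgRNAs above 0. SLX4, the scaffold that holds MUS81 and other nucleases, was on the opposite side at -0.90, with sgRNAs at 54 to 16, 125 to 39, 83 to 36 and 83 to 105 counts.

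PARP1 and POLQ, which act in the end joining pathway that serves when recombination fails, were both past 2-fold. POLQ (chromosome 3, 121431431 to 121545988), the polymerase of that pathway, was at 1.29, with sgRNAs at 42 to 20, 332 to 563, 52 to 90 and 83 to 189 counts. The sum of 509 and 862 gave a log2 of 1.29 (1.13 to 1.45), the same as the median. PARP1 (chromosome 1, 226360210 to 226408154), a sensor of strand breaks, lay on the 2-fold line at 1.00. Its sgRNAs were at 204 to 46, 177 to 188, 279 to 510 and 37 to 2823 counts, so 1 sgRNA gave most of the HQ461 reads of 3567 and another was lower. The PARP1 call was lost with TMM scaling, with a pseudocount of 5, with total counts and without the sgRNA farthest from its median. Just inside the line were PARP1, MUS81 and POLQ, and just outside it were XRCC2, RAD51B and FANCI.

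Position on the chromosome moved with several of the higher values. The 1075 other genes of chromosome 17, where 5 members lie, had a median value of 0.98, and 49.1% of them were called higher. The 386 other genes from the start of 11q to 10 Mb beyond DDB1, a subunit of CUL4 ubiquitin ligases, had a median of 0.95. These regions were chosen after their values had been seen. Against the median of the other genes within 10 Mb, RAD51D stood 0.62 higher, RAD51C 0.90 higher and MUS81 0.50 higher, all below the 2-fold line. On the same scale BRIP1 stood at -1.09, BRCA1 at -0.97 and EME1 at -0.55, so these chromosome 17 members were lower than their neighbours although 2 of them had positive medians. XRCC3, FANCF, POLQ and PARP1 lie elsewhere and stood 2.03, 1.81, 1.58 and 1.20 above their neighbours. RAD51B at 1.10 and PALB2 at 1.07 passed 2-fold on this scale. CHEK1 remained lower at -1.45.

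**Figure D3:**
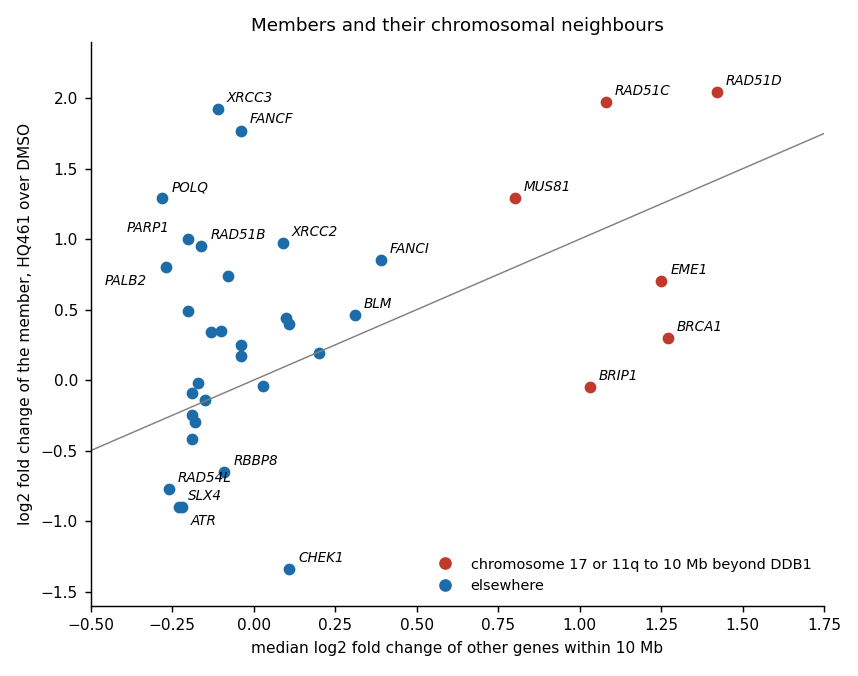
The log2 fold change of each of the 36 genes (y axis) against the median log2 fold change of the other genes within 10 Mb (x axis), with the line of equal values and the genes of chromosome 17 or of 11q up to 10 Mb beyond DDB1 in red. RAD51C, RAD51D and MUS81 lie above the line by 0.90, 0.62 and 0.50, and BRIP1, BRCA1 and EME1 lie below it.

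Outside these regions 30 members remained, of which 4 were called higher and 1 lower, against 5.68% and 8.18% of the genes that remained. Their median was 0.29 and that of the background -0.07. The higher values of the set were therefore not confined to these regions, although 3 of the 7 lay there.

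Abundance with DMSO went with the spread of the values. All genes were divided into 5 equal groups by their median normalized DMSO count, and 20 of the 36 members (55.6%) fell in the lowest group, under 80 normalized counts. That group held 5 of the 7 higher members and the lower one. Among all its genes 13.8% were called higher and 16.1% lower, against 6.57% and 1.94% in the highest group. The SD over genes was 1.08 against 0.60, and their median was -0.08 against 0.04. The next group held 9 members and no call. Of member sgRNAs 21.0% had under 30 normalized DMSO counts, against 8.11% of all targeting sgRNAs. The starting pool is not analysed here, so slower growth of a knockout in DMSO and few copies at the start cannot be told apart. The DMSO count is also the denominator of the fold, and its part in the values was not tested.

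**Figure D4:**
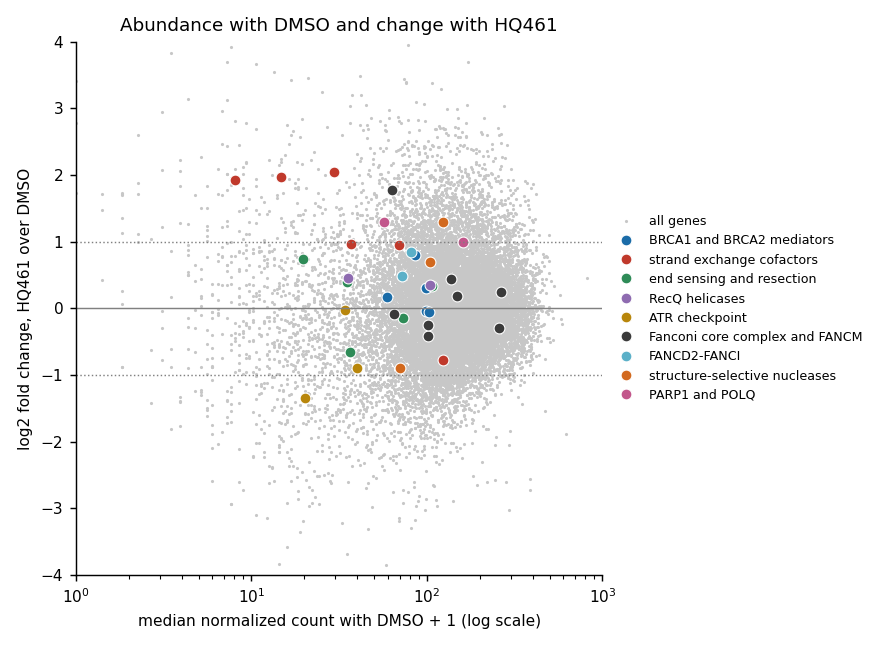
The log2 fold change (y axis) against the median normalized DMSO count + 1 (x axis, log scale) of all genes (grey, with 17 outside the plotted range) and of the 36 repair genes by role (colours). RAD51C, RAD51D and XRCC3 sit at the left, where the spread of all genes is widest, and MUS81 and PARP1 sit in the middle.

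Gene length, the property by which CDK12 targets are often described, was read from the annotation. Members spanned 3.29 to 910.0 kb with a median of 74.4 kb, against 28.0 kb for the 18678 genes placed on the genome. The shortest member, FANCF, and the longest, RAD51B, at 910.0 kb, stood at 1.77 and 0.95.

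The other genes of the pathway had values on both sides of 0. Of 72 other recombination, Fanconi and break response genes, 13 were called lower (18.1%, against 7.69% of all genes) and 8 higher (11.1%, against 9.01%), and their median was -0.01. Among 15 other genes of strand exchange, with a median of -0.36, 4 were lower (26.7%) and 2 higher (13.3%). The lower ones were RPA2, a subunit of the single-strand binding protein, at -1.63, SHFM1, the small partner of BRCA2, at -1.59, FIGNL1, an ATPase of recombination, at -1.17, and PARPBP, which restrains recombination, at -1.02. The higher ones were the helicase HELQ at 1.74 and SWSAP1, a further recombination cofactor, at 1.12.

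Of 14 other Fanconi factors 1 was lower (7.14%) and 2 were higher (14.3%). USP1, which removes ubiquitin from FANCD2, was at -1.08. C17orf70 (now FAAP100, on chromosome 17) was at 1.30, with other genes within 10 Mb at 0.65, and STRA13 (now CENPX) was at 1.05. Among 8 genes that dissolve or resolve joined molecules 3 were lower (37.5%) and 1 higher (12.5%). The nuclease DNA2 was at -1.80, on counts that went from 57 to 4. GEN1, a resolvase, was at -1.20 and SLX1B, the nuclease partner of SLX4, at -1.27. The SLX1B value is uncertain because SLX1A is a near-identical copy. SLX1A itself was at 0.44, with 3 of 4 sgRNAs above 0, so the sgRNAs listed under the 2 symbols gave different values. TOP3A, the topoisomerase that works with BLM, was higher at 1.15, with other chromosome 17 genes within 10 Mb at 0.88.

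RNF8, a ubiquitin ligase at broken ends, was the 1 gene past 2-fold (7.69%) among 13 of the BRCA1-A complex and chromatin response, at 2.51. Its sgRNAs were at 214 to 79, 121 to 140, 64 to 878 and 12 to 296 counts. Of 12 genes of ATM, ATR and checkpoint clamp signalling, TIMELESS at -1.26 and HUS1 at -1.01 were lower (16.7%) and WEE1, which restrains entry into mitosis, was higher at 1.62 (8.33%). Of 10 end joining genes, the kinase PRKDC at -1.49, XRCC5 at -1.07 and the nuclease DCLRE1C at -1.06 were lower (30.0%), and the ligase LIG3 was higher at 1.14 (10.0%), below its chromosome 17 neighbours at 1.42.

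Lists of other DNA metabolism had lower medians than the members. The 20 nucleotide excision repair genes had a median of -0.48 with 4 lower (20%) and 1 higher (5.0%). The 39 DNA replication genes had -0.51 with 11 lower (28.2%) and 1 higher (2.56%), beside 7.69% and 9.01% of all genes. Cyclin K and its kinases were measured in the same table. CCNK sgRNAs, which target cyclin K, summed to 496 and 140 counts with a median of -2.66, and those of CDK13, the other cyclin K kinase, to 237 and 29 with -1.83. CDK12, on chromosome 17 among neighbours at 1.30, summed to 288 and 1322 with a median of 1.87. No member reached the distance of CCNK from 0 on the lower side.

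Across 13 other ways of computing the values, FANCF was called higher in all 13. XRCC3 was called in each of the 12 that gave it a value, since 1 required 30 normalized DMSO counts. RAD51C, RAD51D and MUS81 also had 12 values, because 1 alternative left their regions out. RAD51D was called in 11 of them and was lost against the genes within 10 Mb. RAD51C was called in 10, being lost on that scale and against the chromosome median. MUS81 was called in 9, being lost within 10 Mb, with total counts and at 3-fold. POLQ was called in 10 of 13 and PARP1 in 8 of 13. CHEK1 was called lower in 12 of 13, the exception being a 3-fold threshold. These counts include the 1.5-fold threshold, which any gene past 2-fold meets by definition. For genes elsewhere they also include the alternative without chromosome 17 and the stretch of 11q, which left their values unchanged.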

How the data were processed

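Counts of reads per sgRNA had been made by the authors with MAGeCK 0.5.9.2, according to the processing notes, and were deposited without normalization as 1 column for HQ461 and 1 for DMSO. The tests planned for replicated libraries were not run. Of 77441 sgRNAs, 273 at 0 in both columns were removed. Counts were divided by median-ratio size factors of 0.833 (HQ461) and 1.20 (DMSO), 1 was added, and the median log2 ratio over sgRNAs was taken per gene. Intervals of summed counts are exact Clopper-Pearson intervals at 95%. Positions came from GENCODE 44 on GRCh38, with 17730 genes placed by symbol, 948 by an older symbol and 433 not placed. Python 3.11.15, numpy 2.4.6, scipy 1.17.1, pandas 2.3.3 and, for TMM factors, edgeR 4.0.16 were used, and the code was tested on simulated data. The members and lists were chosen with earlier results of these data known. Named were all members, other pathway genes past 2-fold, SLX1A as the copy of SLX1B, and CDK12, CDK13 and CCNK. Of the comparison lists only counts and medians are given. Guide sequences were not used here. The result for 1 other pathway gene is not reported here, and it was left out of the lists.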

Additional observations from a re-analysis of the deposited data

How the results depend on the processing

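No paired analysis was possible because each condition has a single column. Depth limits the members with few DMSO counts, among them XRCC3, RAD51C, RAD50 and CHEK1. With total counts 6 members were lower and 4 higher, against 32.1% and 2.72% of all genes, and the median of the members was -0.34. All sgRNAs lay below 0 for 4 members and above 0 for 2, and the matching shares of all genes were not computed with this scaling. That scaling lowered the values in common, with the median of all genes at -0.70, and the median of the members stayed above it. The shift was smaller for some genes with few counts, such as XRCC3, which went from 1.92 to 1.33. The median over members was 0.38 with scaling by controls, 0.31 with TMM and 0.40 with the mean over sgRNAs. With summed counts it was 0.60, 10 members were higher, and all genes had a median of 0.22 with 18.1% higher. A minimum of 30 normalized DMSO counts left 34 members. Of these 3 were lower (ATRIP, CHEK1 and MRE11A) and 7 higher, against 8.06% and 8.92% of all genes. It also gave 2 members with all sgRNAs above 0, 13 sgRNAs above the 95th percentile of controls and a median of 0.27. The count of 2 takes only members with 4 sgRNAs left. RAD51B, RAD51C and RAD51D each had an sgRNA under the minimum and so left that count, with none of their sgRNAs below 0. The minimum removed 30 of the 143 member sgRNAs, and the matching shares over the library were not computed. With this minimum CHEK1 and RAD51C rested on 1 sgRNA each, and RAD51D, ATRIP and MRE11A on fewer than 4. With the mean 2 members were lower, CHEK1 and MRE11A, and 7 higher, against 7.13% and 10.2% of all genes. Without the sgRNA farthest from each gene's median, 2 were lower and 12 higher, against 12.2% and 12.1% of all genes, and the median was 0.42. Against the chromosome, 2 were lower and 8 higher, beside 6.75% and 7.1% of all genes, and the median was 0.24. Against genes within 10 Mb, 2 were lower and 6 higher, beside 6.64% and 6.74% of all genes, and the median was 0.25. BRIP1 was the added lower gene in both. At 1.5-fold 5 were lower and 13 higher, against 19.4% and 19.3% of all genes, and at 3-fold 0 and 4, against 2.03% and 3.22%. Without chromosome 17 and the stretch of 11q up to 10 Mb beyond DDB1, an alternative chosen after seeing the data, 4 were higher and the median was 0.29. Apart from the common shift with total counts, the causes of these differences were not tested. Of the 36 genes' values over the alternatives, 267 moved by less than the 95% counting error of the gene's summed counts and 121 by more.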
